A study of Mus musculus with 6 samples.

Results

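This account covers 40 genes that mark macrophages and other leukocytes, chosen by name and read from a table of 44788 gene symbols counted in mouse tail tendons. The 40 comprise 13 genes of macrophage identity and scavenging, 3 chains of complement C1q and 5 Fc receptors or adaptor chains. They also hold 7 genes shared by most leukocytes, 2 transcription factors, 5 genes of antigen presentation, 2 neutrophil genes and 3 lymphocyte genes. No measured value entered the choice rule, but the genes were proposed with earlier results of these data in view. Enough reads for a test were found for 35 of the 40. The 5 others were *Cd52*, *S100a8*, *Cd3e*, *Cd79a* and *Ms4a1*. Of the 35 tested genes, 33 were past the count filter in all 6 libraries, *Aif1* was past it in the 3 WT libraries alone, and *S100a9* in 3 libraries of mixed genotype.

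Tissue macrophages are phagocytes that live in most organs, where they clear debris and dying cells, sense microbes and signal to neighbouring stromal cells. They depend on the receptor encoded by *Csf1r* and on its ligands CSF1 and IL-34, and their development rests on the transcription factor PU.1, the product of *Spi1*. Tendon is a collagen-rich tissue with few cells, most of them fibroblasts, and a smaller number of resident macrophages. Antigen-presenting cells display peptides on class II molecules, while neutrophils and lymphocytes are mostly cells of blood, marrow and lymphoid organs.

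Total RNA came from the tail tendons of C57BL/6 mice, either WT (3 libraries) or *Mkx*-/- (3 libraries), which lack an intact gene of the tendon transcription factor Mohawk. The mice were 3 weeks old by the labels, while a different age stands in the text of the study. RNA was extracted from the tissue and no sorting of cells is described for it, so these are bulk libraries. In them, fewer cells of a type and less RNA per cell cannot be told apart. The labels do not say whether each library came from 1 mouse or from several, so p-values measure the spread between libraries, which may be partly technical.

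Libraries held between 10835070 and 14160301 counts. Counts were scaled with edgeR's TMM factors and are given as CPM, normalised counts relative to library size, on which 1 read was worth between 0.0703 and 0.0981 CPM. *Mkx* itself had 1381 to 1825 counts in WT and 491 to 620 in *Mkx*-/- libraries (log2 fold change -1.60, edgeR adjusted p = 0.00183). WT replicate 3 had 301 counts on the Y-linked gene *Ddx3y* and the other 5 libraries had 0. On *Xist*, expressed in females, it had 1 count and the other 5 libraries had 1289 to 1866. By these genes WT replicate 3 was male and all 3 *Mkx*-/- libraries were female. Sex was thus not balanced between genotypes and not part of the fit, and its part in the levels was not tested. Tendon markers were abundant in all 6 libraries, with *Col1a1* between 96452 and 225743 CPM and *Fmod* between 15622 and 19825 CPM. Skeletal muscle markers differed most between libraries: their sum over 10 genes was 36.4 to 395 CPM in WT and 522 to 2929 CPM in *Mkx*-/- tendons.

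Reads of the 40 genes were a small share of each library, which is not the share of all leukocyte RNA. By role, the 13 macrophage identity genes had the largest sum, but they are also the longest list. The 40 genes took 0.114%, 0.0894% and 0.0899% of the reads in WT and 0.0627%, 0.0939% and 0.0761% in *Mkx*-/- libraries. Per kilobase of exon, *Lyz2*, which encodes lysozyme, stood highest in WT at 189 ± 18.4 CPM per kb (SD, n = 3), with no overlap with the second gene. *C1qb* followed with 63.9 ± 4.99 CPM per kb, then *Fcgr3* with 56.0 ± 24.0, *C1qa* with 35.8 ± 2.24 and *Cd74* with 31.3 ± 16.8. From *C1qb* down to *Cd86* each gene's WT libraries overlapped those of the next gene in the order, so neighbours there are not ranked apart. *Csf1r* came eighth in this order, at 19.7 ± 0.694 CPM per kb. The T cell gene *Cd3e*, which encodes a chain of the T cell receptor complex, had 0 counts in every library, which allows a level of up to 0.211 to 0.294 CPM per library (3 counts, counting error alone).

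Most macrophage genes had lower fitted levels in *Mkx*-/- than in WT tendons. By edgeR's quasi-likelihood test, adjusted over all 14550 genes, 4 of the 35 tested genes fell (11.4%, against 2.26% of all genes), namely *Csf1r*, *Mrc1*, *Mpeg1* and *Cd86*. In the upward direction 0 passed in edgeR, against 3.18% of all genes, and 0 in DESeq2. At an unadjusted p under 0.05, 0 were higher in edgeR, against 12.5% of all genes. By the same unadjusted threshold 24 of the 35 were lower (68.6%, against 10.1% of all genes). The 3 *Mkx*-/- libraries lay below all 3 WT libraries for 22 genes (62.9%, against 13.6% of all genes), and above them for 0, against 14.6%. *Aif1*, past the count filter in the WT libraries alone, is among these 24 and these 22 genes. Requiring at least 10 counts in every library leaves out *Aif1* and *S100a9*, and the numbers were then 23 and 21 of 33 tested genes. The median log2 fold change of the 35 was -0.59, with a range from -1.39 to 0.17, while that of all tested genes was -0.0037. With a log2 fold change below -1 as a further condition, 2 genes passed, *Mrc1* and *Mpeg1*, against 1.33% of all genes, and 0 passed above 1, against 1.89%. The number of genes that fell depended on single libraries, and so did the share of all genes that fell. It was 4 without WT replicate 1 (*Fcgr3* in place of *Cd86*), against 2.96% of all genes. Without WT replicate 2 or 3 it was 1, against 0.869% and 0.852% of all genes. It was 3, 2 and 0 without *Mkx*-/- replicate 1, 2 or 3, against 1.39%, 0.980% and 0.922% of all genes.

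**Figure D1:**
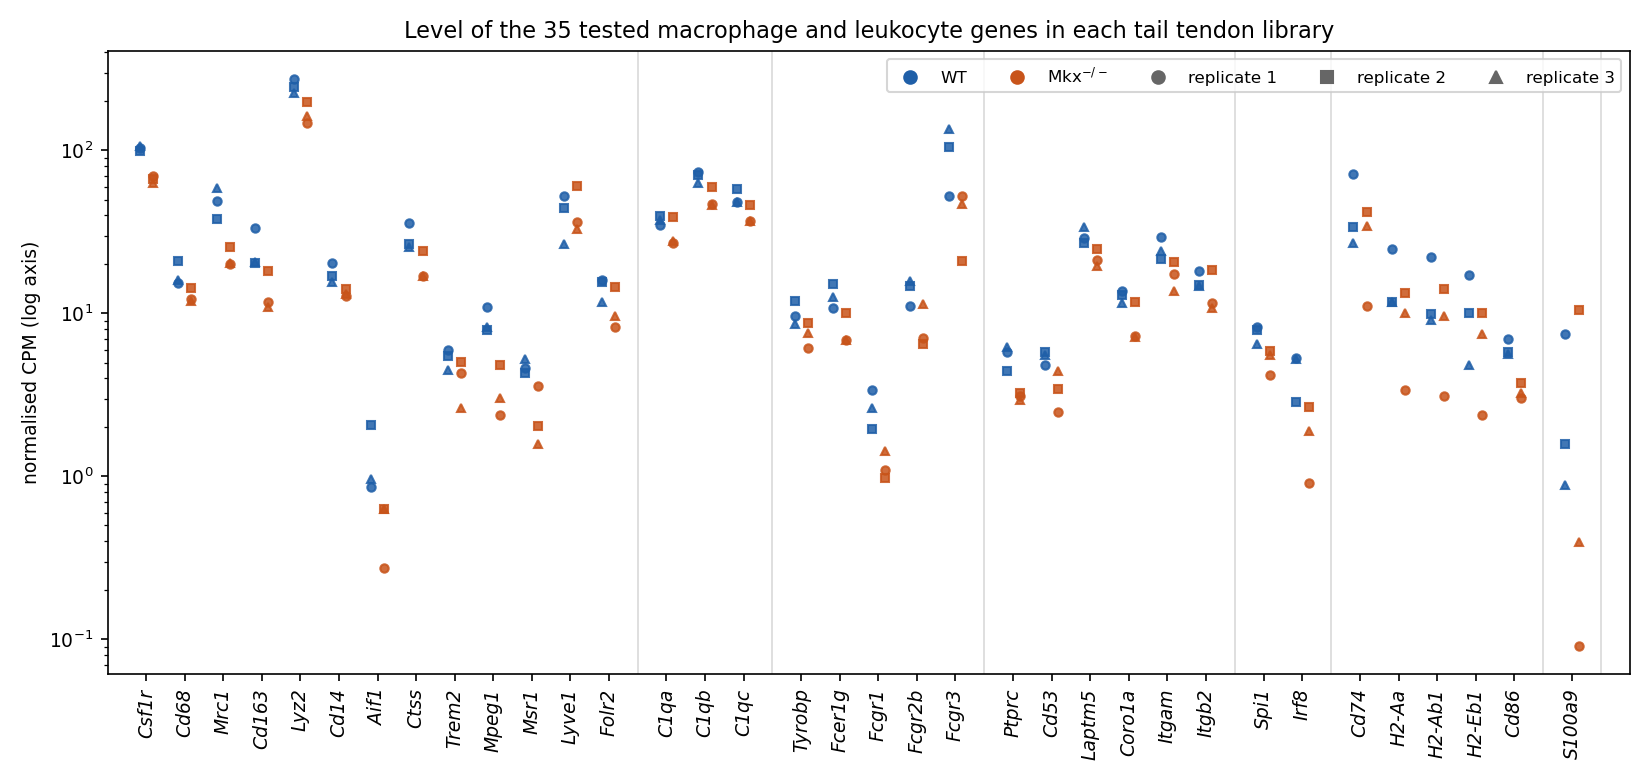
Normalised CPM (log axis) of the 35 tested genes, with 1 point per library, WT in blue and *Mkx*-/- in orange, and marker shapes for the replicate number. The groups are apart for 22 genes, while the class II genes, *Lyve1* and *S100a9* spread across both genotypes.

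*Csf1r* encodes the receptor tyrosine kinase that keeps macrophages alive. It had 103, 99.5 and 107 CPM in WT and 69.9, 66.8 and 63.0 CPM in *Mkx*-/- libraries. The groups were apart and each was tight, with a log2 fold change of -0.63 (SE, the standard error of the fit, 0.11 and edgeR adjusted p = 0.0173). The call was lost on leaving out WT replicate 2 or 3 or *Mkx*-/- replicate 2 or 3 (adjusted p = 0.0591, 0.0720, 0.0719 and 0.0776, and 0.000117 to 0.0993 over the alternatives). *Hmgxb3* overlaps *Csf1r* on the opposite strand, and its log2 fold change was 0.07.

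*Mrc1* encodes the mannose receptor CD206, an endocytic receptor of tissue-resident macrophages. Its level was 49.2, 38.2 and 58.7 CPM in WT and 20.0, 25.7 and 20.5 CPM in *Mkx*-/- libraries, so that the highest *Mkx*-/- library lay below the lowest WT library. The log2 fold change was -1.14 (SE 0.18 and edgeR adjusted p = 0.0135), or 0.453 times the WT level. Of the 4 genes that fell, *Mrc1* depended least on single libraries and passed in 5 of the 6 leave-one-out fits, each without 1 library, with 0.0536 without *Mkx*-/- replicate 3 (5.35e-06 to 0.0536 over the alternatives). *Mpeg1* encodes perforin-2, a pore-forming protein that acts on engulfed bacteria. It had 11, 7.95 and 8.25 CPM in WT and 2.38, 4.85 and 3.01 CPM in *Mkx*-/- libraries. This was the lowest log2 fold change of the 35, at -1.39 (SE 0.28 and edgeR adjusted p = 0.0290), and it passed in 2 of the 6 leave-one-out fits, those lacking WT replicate 1 or *Mkx*-/- replicate 2. In the 4 other fits the adjusted p was 0.0766, 0.0790, 0.0617 and 0.0999 on leaving out WT replicate 2, WT replicate 3, *Mkx*-/- replicate 1 or *Mkx*-/- replicate 3 (0.000838 to 0.0999 over the alternatives).

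The 9 other scavenger and identity genes with a fitted decrease did not pass in edgeR, while 2 of them, *Lyz2* and *Cd163*, passed in DESeq2 (adjusted p = 0.0140 and 0.0315). *Lyz2*, the most abundant, had 274, 244 and 227 CPM in WT and 147, 198 and 163 CPM in *Mkx*-/- libraries, with groups apart and a log2 fold change of -0.55 (SE 0.15 and edgeR adjusted p = 0.0728). Of its 50-base stretches 15.4% also occur in *Lyz1*, a neighbouring lysozyme gene with 145 to 329 counts per library, so reads may have been split between them. *Cd163*, the receptor for haemoglobin-haptoglobin complexes, had 33.2, 20.3 and 20.6 CPM in WT and 11.8, 18.1 and 11 CPM in *Mkx*-/- libraries (log2 fold change -0.85, edgeR adjusted p = 0.0936). The scavenger receptor *Msr1*, whose *Mkx*-/- level was 0.50 times that of WT, had an edgeR adjusted p of 0.102 and passed without *Mkx*-/- replicate 1 (0.0387). For *Ctss*, a lysosomal protease, *Cd68*, a lysosomal membrane protein, and *Cd14*, a co-receptor for bacterial lipopolysaccharide, the groups were apart, with log2 fold changes of -0.59, -0.43 and -0.40. Groups were also apart for *Aif1*, which encodes the cytoskeletal protein IBA1, but with 3 to 21 counts per library its log2 fold change of -1.26 had a standard error of 0.50. *Trem2*, a lipid-sensing receptor, and *Folr2*, a folate receptor of resident macrophages, overlapped between genotypes (log2 fold changes -0.41 and -0.42).

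*Lyve1*, a hyaluronan receptor found on a subset of resident macrophages and on lymphatic endothelium, did not follow the others. It had 52.5, 44.4 and 26.7 CPM in WT and 36.5, 60.9 and 32.9 CPM in *Mkx*-/- libraries, with a log2 fold change of 0.08 (SE 0.30 and edgeR adjusted p = 0.910). Its sign turned with the libraries used, to -0.17 when WT replicate 3 was left out, to -0.25 when *Mkx*-/- replicate 2 was, and to -0.032 without WT replicate 1 and *Mkx*-/- replicate 2. Set against *Csf1r* in the same library, *Lyve1* stood at 0.509, 0.446 and 0.250 in WT and at 0.522, 0.912 and 0.522 in *Mkx*-/- tendons, a ratio of levels without a test. The lymphatic markers *Prox1* and *Ccl21a* reached at most 0.0801 and 0.183 CPM and *Flt4* at most 1.03 CPM, while *Pdpn* and *Reln*, which other cells also express, lay between 25.6 and 74.7 CPM. Their part in the *Lyve1* level was not tested.

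The 3 chains of C1q, the recognition molecule of the classical complement pathway, are encoded side by side within 18.7 kb of chromosome 4 (136436044 to 136454718, minus strand, mm9). *C1qb* had 74.3, 70.6 and 63.6 CPM in WT and 47.2, 59.3 and 46.2 CPM in *Mkx*-/- libraries, and the groups were apart (log2 fold change -0.45, standard error 0.14, edgeR adjusted p = 0.0995). *C1qc* was apart as well, with a log2 fold change of -0.36 (adjusted p = 0.185), and *C1qa* overlapped, with -0.25 (adjusted p = 0.417). In *Mkx*-/- tendons replicate 2 was the highest library for all 3 chains, at 39.1 CPM for *C1qa*, near its WT mean of 37.3 ± 2.33 CPM (SD, n = 3).

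Fc receptors bind the constant part of antibodies, and activating ones signal through the adaptor chain encoded by *Fcer1g*. The group also holds *Tyrobp*, which encodes another adaptor chain. All 5 genes of this group had negative log2 fold changes, between -1.28 and -0.41, with a median of -0.74, and 0 of them passed the adjusted threshold in edgeR (4 at an unadjusted p under 0.05, and 1, *Fcgr3*, in DESeq2). *Fcgr3* was the most variable, with 52.6, 104 and 135 CPM in WT and 52.2, 21.0 and 47.0 CPM in *Mkx*-/- libraries. WT replicate 1 thus lay only just above *Mkx*-/- replicate 1, and the log2 fold change of -1.28 had a standard error of 0.40 (edgeR adjusted p = 0.103, DESeq2 0.00713, and 0.00363 to 0.253 over the alternatives). It passed without WT replicate 1 (adjusted p = 0.0237). *Fcgr3* and *Fcgr2b*, an inhibitory receptor, lie within 104 kb of chromosome 1 and share 10.2% and 10.1% of their 50-base stretches. Their ratio of levels ran from 4.70 to 8.53 in WT and from 3.25 to 7.40 in *Mkx*-/- libraries, so the pair kept no fixed proportion. Both genes nonetheless rose from WT replicate 1 to WT replicate 3 and were lowest in *Mkx*-/- replicate 2. *Fcgr1*, the high-affinity receptor, had 20 to 43 counts in WT and 12 to 18 in *Mkx*-/- libraries, with groups apart (log2 fold change -1.19, edgeR adjusted p = 0.0727). *Fcer1g* was also apart (log2 fold change -0.69, adjusted p = 0.0933), and *Tyrobp* overlapped (-0.41, adjusted p = 0.262).

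Genes that most leukocytes share pointed the same way without passing. *Ptprc*, which encodes the leukocyte phosphatase CD45, had 5.83, 4.42 and 6.25 CPM in WT and 3.11, 3.23 and 2.93 CPM in *Mkx*-/- libraries. The groups were apart, with a log2 fold change of -0.83 (SE 0.21 and edgeR adjusted p = 0.0648). *Laptm5*, a lysosomal membrane protein of blood cells, the tetraspanin *Cd53* and the integrin chain *Itgam*, which encodes CD11b, were apart too, with log2 fold changes of -0.46, -0.63 and -0.54 (adjusted p = 0.104, 0.180 and 0.130). The actin regulator *Coro1a* and the integrin partner chain *Itgb2* overlapped (log2 fold changes -0.54 and -0.23), and *Cd52*, with 4 to 12 counts, was not tested. Of the transcription factors, *Spi1* had 8.27, 7.95 and 6.49 CPM in WT and 4.21, 5.90 and 5.55 CPM in *Mkx*-/- libraries (log2 fold change -0.53, edgeR adjusted p = 0.163). *Irf8*, a regulator of monocyte and dendritic cell fate, had 5.36, 2.85 and 5.29 CPM in WT and 0.916, 2.67 and 1.90 CPM in *Mkx*-/- libraries (log2 fold change -1.28, standard error 0.40, adjusted p = 0.104).

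**Figure D2:**
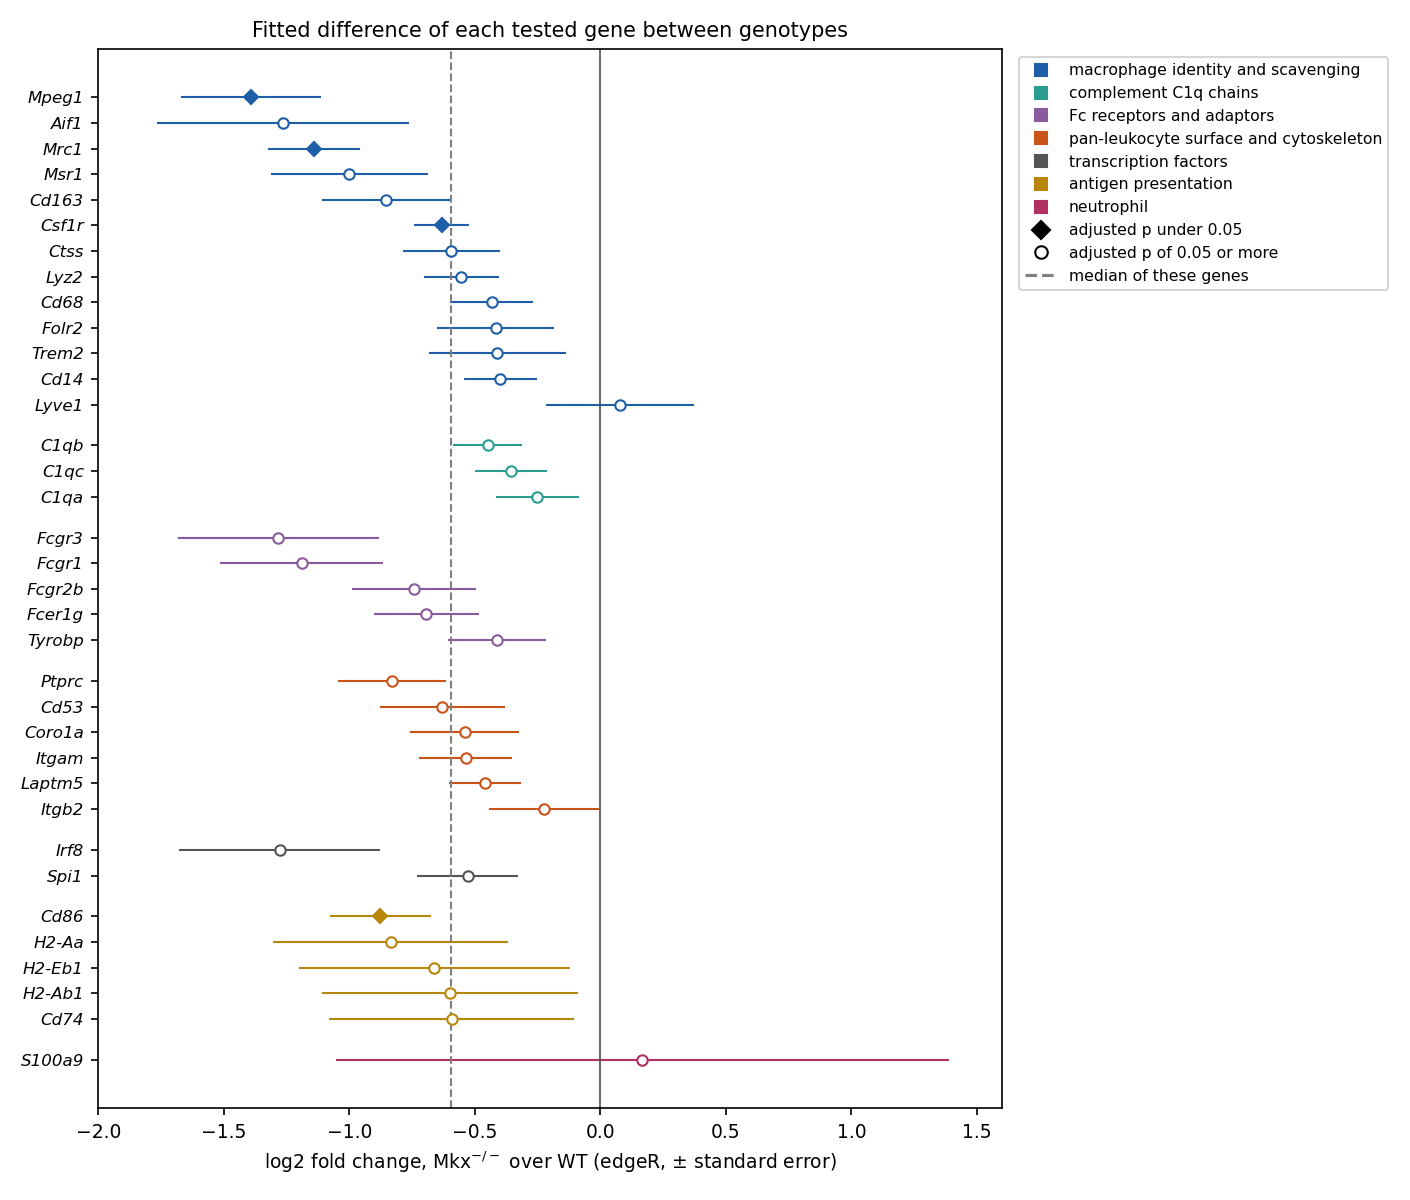
Log2 fold change of *Mkx*-/- over WT for each tested gene (points, with bars for the standard error of edgeR's fit), grouped by role, with filled diamonds for an adjusted p under 0.05. Of the 35 genes 33 lie to the left of 0, the dashed median is at -0.59, and *Lyve1* and *S100a9* lie to the right.

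Binding sites for PU.1 hold a purine-rich core, so the promoters of the genes were searched for the letters GAGGAA on either strand. RefSeq promoters (build GRCm38.p6, 250 bases before to 50 after the start of transcription) were at hand for 27 of the 40 genes, in 32 windows. The letters occurred in 17 of the 32 windows (53.1%), against 28.3% of all 32851 windows. Counted by gene, 16 of the 27 had a match, since some genes have more than 1 window and the 2 overlapping windows of *Fcgr3* hold the same match. For comparison, TATAAA occurred in 18.8% of the 32 windows and 13.6% of all windows, and GGGCGG in 28.1% and 35.7%. These shares describe letters in a window and not bound sites. The windows of *Mrc1* and *Mpeg1*, which fell, of *C1qb* and *Fcgr3*, which are among the most abundant members, and of *Laptm5* follow, with GAGGAA or its reverse complement TTCCTC in capitals. In *C1qb*, *Mrc1* and *Laptm5* the match nearest to the start began 30, 35 and 38 bases before it, and in *Fcgr3* 6 bases before it. The *Mpeg1* window does not hold these letters, nor does that of *Lyz2*, the most abundant member, which is not printed. The windows printed are a selection and do not stand for the share with a match.
Mrc1 (chr2:14229164-14229463, plus strand): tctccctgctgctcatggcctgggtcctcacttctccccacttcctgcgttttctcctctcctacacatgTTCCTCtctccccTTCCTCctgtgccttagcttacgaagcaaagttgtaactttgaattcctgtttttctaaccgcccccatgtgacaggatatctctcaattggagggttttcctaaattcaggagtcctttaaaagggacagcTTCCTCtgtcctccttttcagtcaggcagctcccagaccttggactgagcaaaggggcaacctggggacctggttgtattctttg
Mpeg1 (chr19:12460520-12460819, plus strand): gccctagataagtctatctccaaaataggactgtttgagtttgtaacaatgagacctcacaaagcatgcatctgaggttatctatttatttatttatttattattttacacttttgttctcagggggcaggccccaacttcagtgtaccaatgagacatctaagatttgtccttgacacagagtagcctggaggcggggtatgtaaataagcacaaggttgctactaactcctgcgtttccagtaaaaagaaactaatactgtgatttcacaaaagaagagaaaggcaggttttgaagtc
C1qb (chr4:136886151-136886450, minus strand): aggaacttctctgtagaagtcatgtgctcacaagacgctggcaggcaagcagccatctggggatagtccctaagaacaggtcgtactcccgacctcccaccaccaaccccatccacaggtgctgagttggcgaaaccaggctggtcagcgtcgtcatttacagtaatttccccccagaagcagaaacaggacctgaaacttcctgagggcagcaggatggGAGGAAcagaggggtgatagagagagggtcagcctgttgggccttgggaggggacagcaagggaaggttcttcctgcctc
Fcgr3 (chr1:171059354-171059653, minus strand): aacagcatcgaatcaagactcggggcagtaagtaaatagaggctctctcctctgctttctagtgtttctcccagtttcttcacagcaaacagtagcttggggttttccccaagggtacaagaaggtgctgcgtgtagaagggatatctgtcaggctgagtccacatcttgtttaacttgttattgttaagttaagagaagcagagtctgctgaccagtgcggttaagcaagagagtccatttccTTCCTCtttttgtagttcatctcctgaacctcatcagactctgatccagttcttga
Laptm5 (chr4:130913066-130913365, plus strand): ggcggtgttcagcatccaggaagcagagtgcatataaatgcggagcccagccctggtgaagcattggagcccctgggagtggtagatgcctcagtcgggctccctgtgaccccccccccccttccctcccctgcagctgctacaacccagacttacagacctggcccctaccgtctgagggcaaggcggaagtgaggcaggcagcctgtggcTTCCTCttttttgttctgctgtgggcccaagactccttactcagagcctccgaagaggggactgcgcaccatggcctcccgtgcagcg

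Antigen presentation varied more between libraries of 1 genotype than between genotypes. *Cd74*, which encodes the invariant chain that escorts class II molecules, had 71.2, 34.1 and 27.0 CPM in WT and 11.2, 41.9 and 34.5 CPM in *Mkx*-/- libraries. The class II chains *H2-Aa*, *H2-Ab1* and *H2-Eb1* shared its extremes, with WT replicate 1 highest at 25, 22.1 and 17.1 CPM and *Mkx*-/- replicate 1 lowest at 3.39, 3.11 and 2.38 CPM. The 4 genes had log2 fold changes between -0.84 and -0.59 with standard errors between 0.47 and 0.54, and 0 passed in edgeR or DESeq2 (0 at an unadjusted p under 0.05 in edgeR). Without WT replicate 1 these log2 fold changes were nearer to 0, at -0.057 for *Cd74*, -0.37 for *H2-Aa*, -0.063 for *H2-Ab1* and -0.12 for *H2-Eb1*. *H2-Aa* and *H2-Ab1* overlap tail to tail on chromosome 17, so their counts are not independent if strand was ignored. *Cd86*, a costimulatory ligand for T cells, behaved otherwise, with 7.01, 5.79 and 5.61 CPM in WT and 3.02, 3.72 and 3.25 CPM in *Mkx*-/- libraries. It fell with a log2 fold change of -0.88 (SE 0.20 and edgeR adjusted p = 0.0452), close to the threshold, and passed in 0 of the 6 leave-one-out fits, where the adjusted p lay between 0.0859 without WT replicate 1 and 0.134 without *Mkx*-/- replicate 3 (0.0375 to 0.134 over the alternatives).

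Most reads of the neutrophil and B cell members lay in 1 library of each genotype. *S100a9*, a calcium-binding alarmin of neutrophils, had 95, 16 and 11 counts in WT and 1, 149 and 5 counts in *Mkx*-/- libraries. Its partner *S100a8* had 37, 4 and 2 counts in WT and 2, 55 and 2 counts in *Mkx*-/- libraries. WT replicate 1 and *Mkx*-/- replicate 2 together held 85.9% of the summed CPM of *S100a9* and 88.3% of that of *S100a8*. The same pair held 92.5% for *Ngp*, 92.9% for *Ltf* and 90.2% for *Mpo*, granule proteins of developing neutrophils, which were named after their values were seen. B cell genes shared this pattern: *Cd79a*, a chain of the B cell receptor, had 9, 1 and 2 counts in WT and 3, 26 and 1 in *Mkx*-/- libraries. *Ms4a1*, which encodes CD20, had 8 counts in each of those 2 libraries and 0 in the 4 others. The further neutrophil and lymphocyte genes that could be tested were spread more widely. *Lcn2* had 3.15, 3.83 and 4.09 CPM in WT and 1.28, 4.64 and 1.19 CPM in *Mkx*-/- libraries. *Cd79b* had 0.945, 1.08 and 0.240 CPM in WT and 0.183, 1.19 and 0.476 CPM in *Mkx*-/- libraries. *Mmp9* and *Ighm* were highest of their groups in WT replicate 1 and *Mkx*-/- replicate 2, but reached 3.04 and 2.24 CPM elsewhere. For *S100a9* the log2 fold change was 0.17 with a standard error of 1.22 (edgeR adjusted p = 0.959), and the 2 genotypes thus could not be compared on it at this spread. Summed erythroid markers were likewise highest in WT replicate 1 among WT and in *Mkx*-/- replicate 2 among *Mkx*-/- libraries. They summed to 182, 41.8 and 44.1 CPM in WT and 29.0, 49.3 and 24.0 CPM in *Mkx*-/- libraries, with *Hbb-b1* and *Hbb-b2* at 0. Of the 2 most abundant, *Hba-a1* shared this order, whereas *Hba-a2* was highest in replicate 1 of both genotypes. Their part in the levels of the leukocyte genes was not tested.

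**Figure D3:**
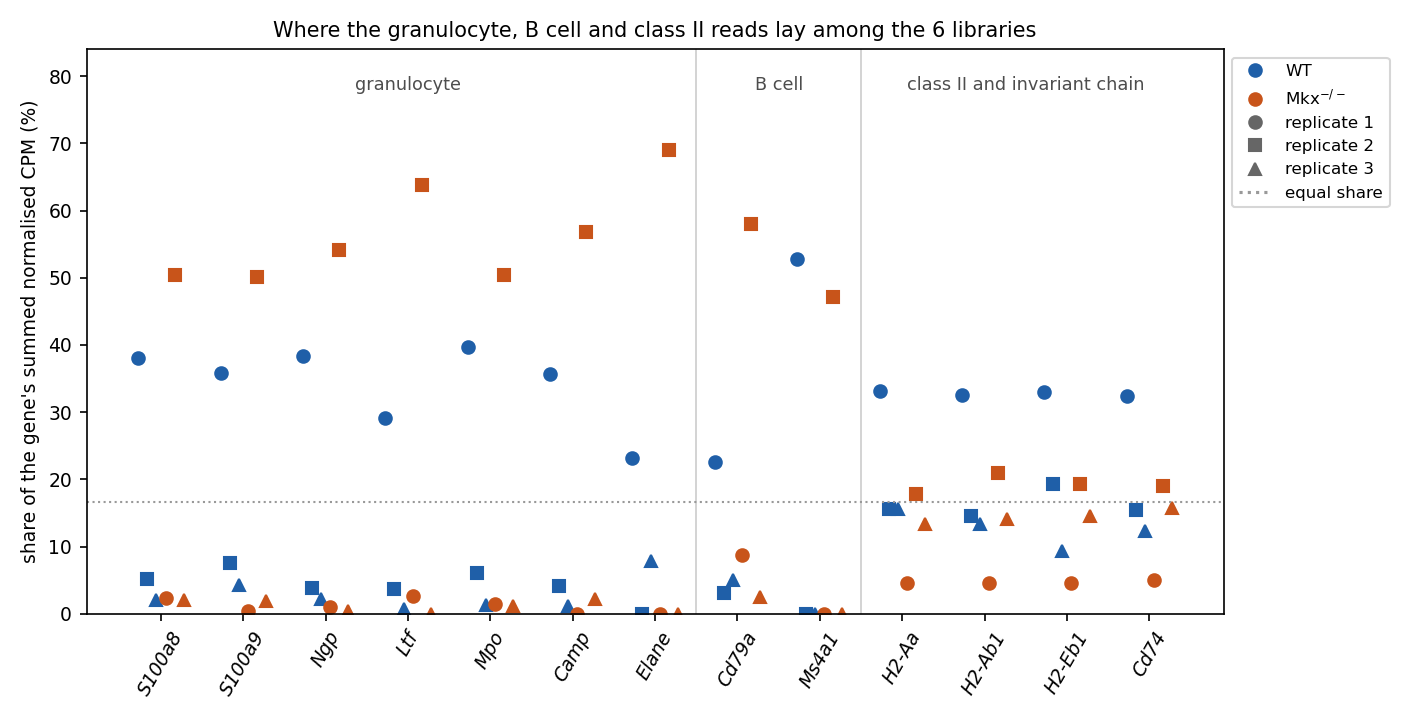
Share (%) of each gene's normalised CPM, summed over the 6 libraries, that lay in each library, with WT in blue, *Mkx*-/- in orange and marker shapes for the replicate number. WT replicate 1 and *Mkx*-/- replicate 2 hold 80.5% to 100% of each granulocyte and B cell gene shown. The 4 class II genes give these libraries 51.0% to 53.4%. *Lcn2*, *Mmp9*, *Cd79b* and *Ighm*, which were spread more widely, are not shown.

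These 2 libraries also ranked high for the macrophage genes. Of the 35 tested genes, WT replicate 1 was the highest WT library for 21 and *Mkx*-/- replicate 2 the highest *Mkx*-/- library for 28. *Mkx*-/- replicate 1 was the lowest of its group for 20. Without WT replicate 1 and *Mkx*-/- replicate 2 together, a choice made after seeing the data that leaves 2 libraries per genotype, 8 genes fell (2.53% of all genes), namely *Cd163*, *Csf1r*, *Ctss*, *Fcer1g*, *Fcgr3*, *Lyz2*, *Mpeg1* and *Mrc1*, and the median log2 fold change was -0.62. *Cd86* was not among them (adjusted p = 0.115).

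Summed by role, the groups of genes did not all share this order of libraries. The 13 macrophage identity genes summed to 622, 547 and 527 CPM in WT and 346, 449 and 350 CPM in *Mkx*-/- libraries. For the 3 C1q chains the sums were 157, 168 and 150 CPM against 111, 145 and 111 CPM. The Fc receptor sums, to which *Fcgr3* gave the most, were 87.7, 148 and 175 CPM in WT and 73.4, 47.3 and 74.4 CPM in *Mkx*-/- libraries. Here WT replicate 1 and *Mkx*-/- replicate 2 were the lowest of their groups. *Fcgr3* and *Fcgr2b* were also lowest in these libraries. In contrast, *Fcer1g* and *Tyrobp* were highest of the *Mkx*-/- libraries in replicate 2, and *Fcgr1* was highest of the WT libraries in replicate 1. Antigen presentation genes summed to 142, 71.5 and 58.2 CPM in WT and 23.1, 83.3 and 64.9 CPM in *Mkx*-/- libraries, which overlap. With the antigen presentation, neutrophil and lymphocyte genes left out, the remaining 30 genes summed to 968 ± 12.6 CPM in WT and 645 ± 76.7 CPM without *Mkx* (SD, n = 3 each), a ratio of 0.666. The WT libraries differed little in this sum, but its parts differed more: WT replicate 1 was highest for the macrophage identity genes and lowest for the Fc receptor genes. The spread in *Mkx*-/- tendons came from replicate 2 at 733 CPM against 598 and 602 CPM. All 40 genes summed to 1064 ± 63.6 CPM in WT and 708 ± 111 CPM in *Mkx*-/- libraries (SD, n = 3 each).

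**Figure D4:**
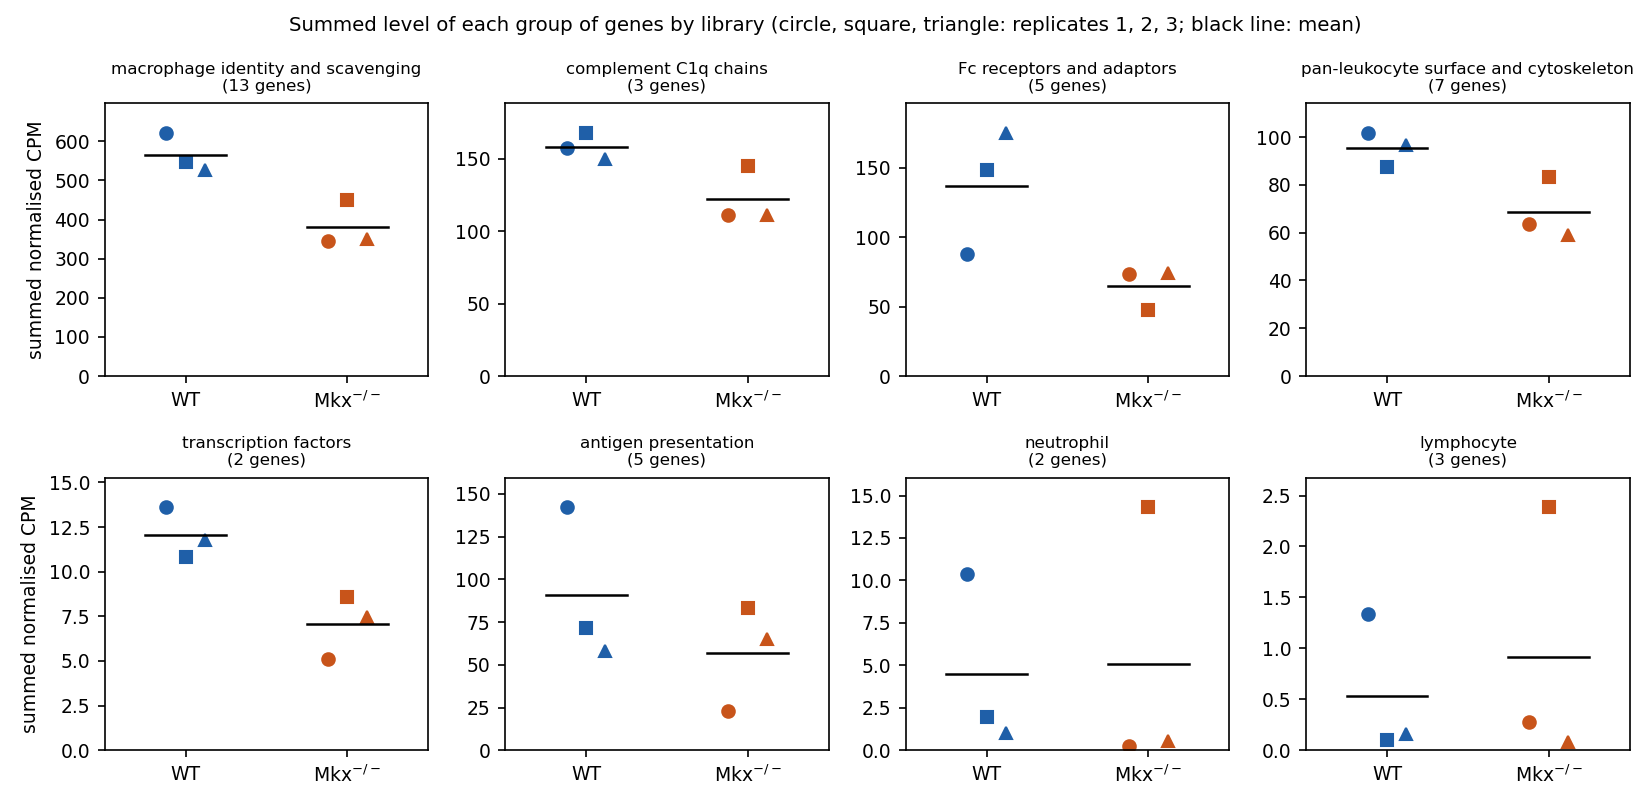
Summed normalised CPM of the genes of each role, 1 point per library and a black line for the group mean, with all axes starting at 0. The macrophage, C1q, Fc receptor, pan-leukocyte and transcription factor sums are lower in the 3 *Mkx*-/- libraries than in the 3 WT libraries, and those for antigen presentation, neutrophils and lymphocytes overlap.

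Ratios of *Mrc1*, *Lyz2* and the C1q chains to *Csf1r* varied between libraries, and each overlapped between genotypes. The ratio of *Mrc1* to *Csf1r* was 0.476, 0.384 and 0.550 in WT and 0.286, 0.385 and 0.325 in *Mkx*-/- libraries. WT replicate 2 thus lay just below *Mkx*-/- replicate 2. For *Lyz2* the ratio was 2.66, 2.46 and 2.12 in WT and 2.1, 2.96 and 2.59 in *Mkx*-/- libraries, which overlap. The summed C1q chains stood at 1.40 to 1.69 times *Csf1r* in WT and at 1.59 to 2.17 times in *Mkx*-/- tendons. These ratios are of CPM, not per length, and serve for comparison between libraries alone.

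A further list of 98 macrophage and leukocyte genes, of which 67 could be tested, was read beside the 40. In it 10 genes fell (14.9%, against 2.26% of all genes) and 0 passed upward in edgeR or DESeq2 (2 at an unadjusted p under 0.05), with a median log2 fold change of -0.53. Among 26 tested macrophage receptors 6 fell. *Stab1*, a scavenger receptor of resident macrophages and of some endothelium, was at 119 ± 12.4 CPM in WT tendons and fell to 50.5 ± 2.05 CPM (SD, n = 3 each), with -1.24 on the log2 scale (edgeR adjusted p = 0.00173). *Emr1*, which encodes the macrophage antigen F4/80, fell by 1.09 on the log2 scale (adjusted p = 0.00921), and *Fcrls* and *Cd33* changed by -1.21 and -1.44 on the log2 scale (adjusted p = 0.0204 and 0.0220). The other 2 were *Siglec1* and *Ms4a6c*. Among 28 leukocyte signalling genes 4 fell: *Nckap1l*, an actin regulator of blood cells, *Cybb*, a subunit of the phagocyte oxidase, *Arhgdib* and *Inpp5d*, which changed by -1.05, -1.08, -0.67 and -0.82 on the log2 scale (edgeR adjusted p = 0.00487, 0.0417, 0.0477 and 0.0485). *Stab1*, *Emr1* and *Nckap1l* passed in all 6 leave-one-out fits. The number of genes that fell was 7 without WT replicate 1, against 2.96% of all genes. Leaving out WT replicate 2 or 3 gave 4 and 3, against 0.869% and 0.852% of all genes. Leaving out *Mkx*-/- replicate 1, 2 or 3 gave 5, 6 and 4, against 1.39%, 0.980% and 0.922% of all genes.

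The ligands of the receptor encoded by *Csf1r* did not share its direction. *Csf1* stood at 113 ± 18.0 CPM for WT against 123 ± 17.2 CPM without *Mkx* (log2 fold change 0.12, standard error 0.16), and *Il34* at 16.2 ± 1.67 against 19.3 ± 7.11 CPM (log2 fold change 0.25, standard error 0.25; SD, n = 3 each). Of the 4 tested genes of this axis 0 passed in edgeR or DESeq2, with 0 at an unadjusted p under 0.05. The class II peptide editors *H2-DMa* and *H2-DMb1* differed by 0.81 and 0.89 on the log2 scale (edgeR adjusted p = 0.123 and 0.130), opposite in sign to *H2-Aa* and *H2-Ab1*. *H2-DMa* passed upward when libraries were scaled by their totals alone, *H2-DMb1* did without *Mkx*-/- replicate 1, and both did when genes with at least 1 count in any library were kept. Of 11 further neutrophil genes 2 and of 15 further lymphocyte genes 2 could be tested, and 0 passed in edgeR or DESeq2 (0 at an unadjusted p under 0.05).

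Markers of other cell types moved with genotype as well, and their part in the levels above was not tested. All 10 skeletal muscle markers had positive log2 fold changes, with a median of 2.99, and 2 rose. Their sum was highest in *Mkx*-/- replicate 1, at 2929 CPM, the library that was lowest of all 6 for 20 of the 35 genes. These reads made up between 0.00314% and 0.295% of a library. With the 10 genes removed before scaling the same 4 genes fell. Removing so few reads can hardly change the scaling, so this does not test the part of muscle tissue in these levels. All 6 Schwann cell markers also had positive log2 fold changes (median 0.91) without passing, and they made up 0.613% to 0.745% of the WT and 0.989% to 2.09% of the *Mkx*-/- reads. Of 8 blood endothelial markers 6 had positive log2 fold changes (median 0.79, 0 past the threshold in edgeR, 4 at an unadjusted p under 0.05). Osteoclasts, which share the monocyte lineage, are marked by *Acp5* and *Ctsk*: *Acp5* rose from 4.74 ± 0.258 to 22.3 ± 2.78 CPM (SD, n = 3 each; log2 fold change 2.24, edgeR adjusted p = 0.000463), and *Ctsk*, with a log2 fold change of 0.33, did not pass (adjusted p = 0.135). The osteoclast genes *Calcr*, *Ocstamp*, *Dcstamp* and *Atp6v0d2* were at 0 to 0.709 CPM in all 6 libraries and were not tested.

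Scaling moved the size of these differences, and turned the sign of 2 genes. Divided by total counts alone, all genes shifted upward, to a median log2 fold change of 0.25. The 3 genes *Col1a1*, *Col1a2* and *Sparc* took 42.0% to 48.5% of the WT reads and 28.3% to 34.8% of the *Mkx*-/- reads. The 35 genes then had a median of -0.35, a difference of -0.60 from that of all genes, against -0.59 with TMM scaling. Under that scaling *Mrc1* was the 1 gene that passed in edgeR (adjusted p = 0.0335), against 1.35% of all genes that fell. In edgeR 9 were lower at an unadjusted p under 0.05, and 8 had groups apart. For the 9 and the 8 the shares of all genes under this scaling were not taken. *C1qa* and *Itgb2* had log2 fold changes above 0, while 23.8% of all genes had one below 0.

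**Figure D5:**
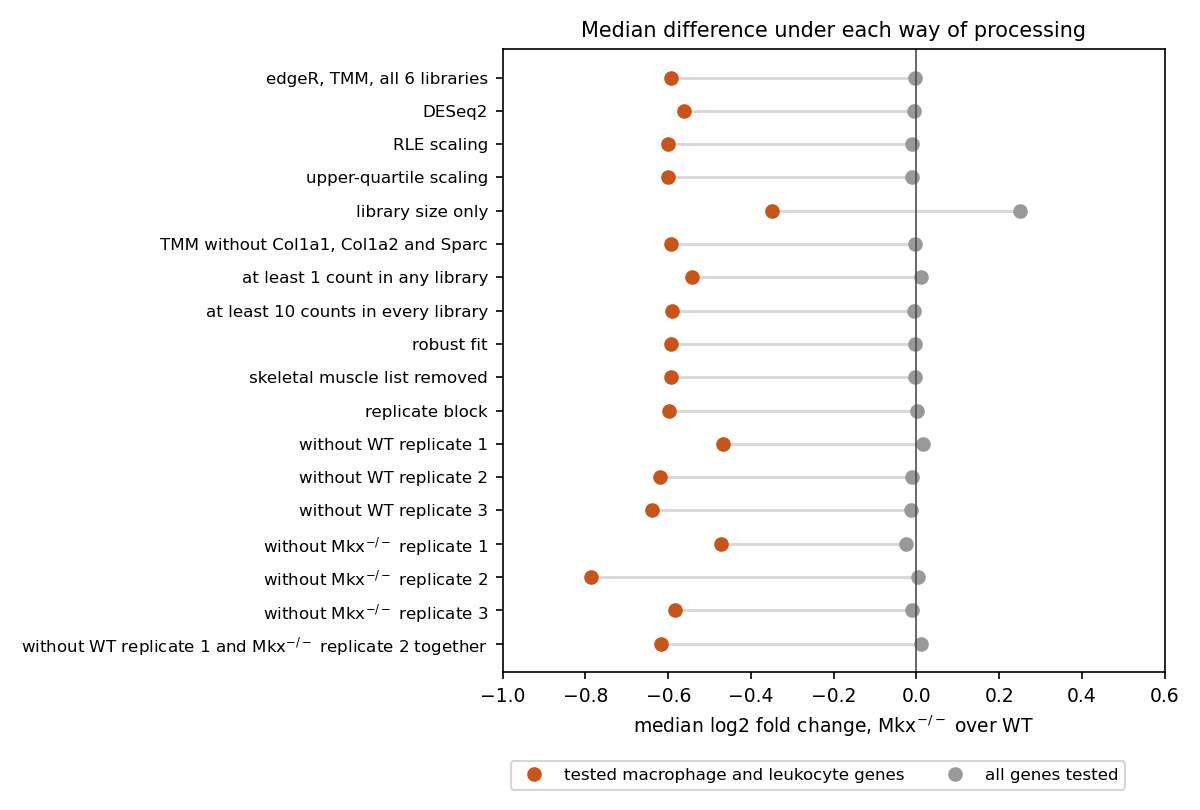
Median log2 fold change of *Mkx*-/- over WT for the tested macrophage and leukocyte genes (orange) and for all tested genes (grey) under each way of processing the counts. The orange points lie between -0.79 and -0.35, and the grey points are near 0 except under scaling by library size, where they move to 0.25.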

How the data were processed

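Total RNA of tail tendons was sequenced on the Ion Proton system with the Ion Total RNA-Seq Kit v2. The authors trimmed and filtered the reads, aligned them to mm9 with MapSplice and deposited counts for each gene symbol, not normalised. The counting program, its annotation and its use of strand are not given in the sources used here. Column names gave the sample of all 6 columns, with 0 left over.

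From the counts, edgeR 4.0.16 (R 4.3.3) gave TMM factors, filterByExpr left 14550 genes, and a quasi-likelihood fit on genotype alone was tested with Benjamini-Hochberg adjustment over those genes. DESeq2 1.42.0 was an alternative. With 3 libraries per group the smallest two-sided p of an exact permutation test is 0.1. The biological coefficient of variation was 0.196. Fits were tested on simulated data. Members and lists were chosen with earlier results of these data known. The text names every member, at most the 4 genes with the smallest p in each further list and the 2 most abundant markers of each cell type. *Siglec1*, *Ms4a6c*, *Ngp*, *Ltf*, *Mpo*, *Camp*, *Elane*, *Hbb-b1*, *Hbb-b2*, *Lyz1*, *Hmgxb3* and the low lymphatic and osteoclast markers were named after their values were seen. One gene is not reported here. Exon lengths and mm9 coordinates came from GENCODE vM1, where *Spi1* was matched through its synonym *Sfpi1*. Shared sequence was counted in stretches of 50 bases over protein-coding transcripts. Promoters came from RefSeq (GRCm38.p6), without entries for *Csf1r*, *Cd14*, *Msr1*, *Lyve1*, *C1qa*, *Tyrobp*, *Cd52*, *Itgb2*, *Spi1*, *Cd74*, *H2-Ab1*, *Cd86* and *Ms4a1*.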

Additional observations from a re-analysis of the deposited data

How the results depend on the processing

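The median log2 fold change of the 35 genes stayed negative in each of the 17 alternatives (-0.79 to -0.35), as did *Mkx* (-1.80 to -1.36). The genes that fell numbered 4, against 7 with DESeq2, 7 with a filter of 1 count in any library, 1 with library size only, 0 with the replicate number as a block, 0 to 4 when 1 library was left out and 8 without WT replicate 1 and *Mkx*-/- replicate 2. With a log2 fold change below -1 there were 2, against 4 with the filter of 1 count, 0 with library size only, 0 with the block, 0 to 3 without 1 library and 4 without those 2 libraries. At an unadjusted p under 0.05, 24 became 9 with library size only, and 22 genes with groups apart became 8. With library size only, 23.8% of all genes had a negative log2 fold change, against 50.5% with TMM scaling. Of the further list 10 fell, against 5 with library size only, 3 with the block and 3 to 7 without 1 library, and the 0 that passed upward became 1, 2 with the filter of 1 count and 0 to 1 without 1 library. All genes that fell numbered 329, against 558 with DESeq2, 594 with the filter of 1 count, 197 with library size only, 170 with the block and 127 to 439 without 1 library, and the 463 that rose became 761, 970, 1358, 264 and 117 to 539. The labels give replicate numbers and no pairing. Deviations of same-numbered libraries had correlations of -0.020, -0.26 and 0.33, which cannot show whether they were paired by design. Signs turned for *C1qa* (0.013) and *Itgb2* (0.024) with library size only, for *S100a9* with the block (-0.54) and between -3.67 and 1.63 without 1 library, and for *Lyve1* between -0.25 and 0.29 without 1 library and at -0.032 without the 2 libraries. Genes with few counts, such as *Aif1* (3 to 21 per library) and *Fcgr1* (12 to 43), carry a large counting error at this depth. The cause was not tested for these changes.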
